A study of Mus musculus with 12 samples.

Results

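The genes described are 9 that mark the maturation of dendritic cells or carry its signals to T cells: the costimulators Cd80, Cd86, Icosl and Cd40, the checkpoint ligands Cd274 (PD-L1) and Pdcd1lg2 (PD-L2), the maturation marker Cd83, the actin-bundling gene Fscn1 and the chemokine receptor Ccr7. They were chosen by name, and every probe that the array's annotation gives to one of them was used, 17 of 46237 probes and 9 of 21946 named genes. All 17 probes met the condition for being tested, a detection p under 0.05 on 3 or more of 12 arrays, as did 26390 probes in all. Each gene is represented by its brightest probe, and its other probes are given beside it.

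A dendritic cell that meets a microbial or inflammatory signal matures: it moves peptide-loaded MHC molecules to its surface, raises its costimulatory ligands, and gains CCR7, the receptor through which it follows CCL19 and CCL21 into the T cell zones of lymphoid organs. CD80 and CD86 bind CD28, which activates T cells, and CTLA-4, which restrains them. PD-L1 and PD-L2 bind PD-1, an inhibitory receptor, so mature cells carry ligands of both signs. In the spleen a fraction of dendritic cells also matures without infection.

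The samples were CD11c+ cells taken from mouse spleens with magnetic beads, and RNA was hybridised to Illumina MouseWG-6 v2.0 arrays, 1 array a sample. There were 4 groups of 3 samples: ApoE-/- mice on normal chow (samples 1 to 3; ApE-/- in some labels), ApoE-/- mice on a high-cholesterol diet (4 to 6), Bl6 mice on chow (7 to 9) and Bl6 mice fed high cholesterol (10 to 12). The high-cholesterol diet is called a high fat diet in the series' design text. ApoE-/- names a loss of the gene in the whole mouse, not only in CD11c+ cells. The mice's ages, the time on the diet, and whether a sample is 1 mouse or a pool are not given in the sources used here, so a p-value here measures no more than the spread between samples, part or all of which may be technical. The cells received no stimulus, so levels are those of cells as taken from the spleen. Values are log2 normalised intensities unless stated otherwise, and levels of different probes cannot be set against each other.

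Arrays had a median intensity of 102 to 120, and 47.7% to 50.3% of probes were detected. Apoe followed the labels, with 6 ApoE-/- readings between 5.49 and 5.93 and 6 Bl6 readings between 12.18 and 13.28. Of 11 genes of the CD11c and dendritic cell core all were measured; Itgax, which encodes CD11c itself, read 8.03 to 8.73, whereas Flt3, a receptor that dendritic cells need to develop, was detected on only 5 arrays. The fraction also held B cell RNA (12 of 15 marker genes measured) and T cell RNA (11 of 15). Sex-linked genes and neutrophil genes also differed by genotype. Xist lay between 4.17 and 4.39 in every ApoE-/- sample and between 9.75 and 10.88 in every Bl6 sample, and Y-linked Eif2s3y the other way round, so genotype and these sex-linked states cannot be told apart. All 13 measured neutrophil genes had a higher mean in ApoE-/- samples, and 9 of them differed at an adjusted p under 0.05. The summed linear level of the 13 was 14829 to 22123 there against 7274 to 11113 in Bl6. The deposited tables also disagree on the diets of the 6 ApoE-/- arrays, with samples 1, 2 and 3 exchanged for 4, 5 and 6; the intensity table's names are used here, and averages over diets are the same under both.

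None of the 9 genes passed the test in any of the 6 comparisons (limma's moderated test, Benjamini-Hochberg adjusted over 26390 probes). Averaged over diets, 1.96% of 14326 tested genes passed between genotypes, against 0 of the 9. At an unadjusted p under 0.05, 3 of the 9 (Cd83, Pdcd1lg2 and Icosl) stood apart, where 16.8% of all genes did. The median difference of the 9 was -0.04, with 4 above 0 and 5 below, and that of all genes was 0.01. In only 1 of the 9, Cd83, did the 6 samples of one genotype lie wholly below the 6 of the other, a separation seen in 2.93% of all genes. In these bulk samples, fewer cells of a type and less RNA per cell cannot be told apart.

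**Figure D1:**
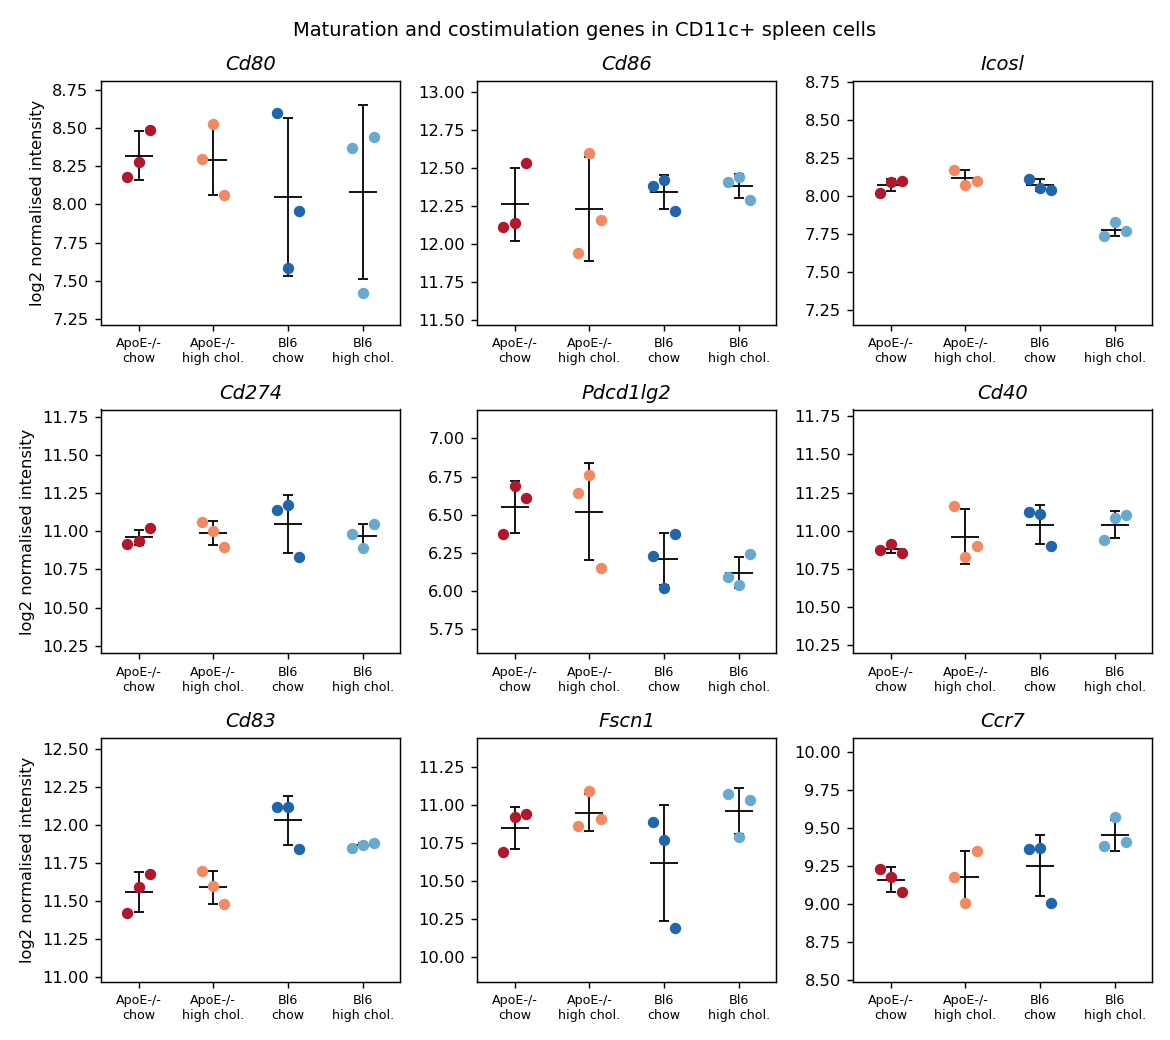
Log2 normalised intensity of the brightest probe of each of the 9 genes (vertical axis) in the 4 groups (horizontal axis); points are samples, long bars group means and whiskers 1 SD, n = 3 a group, and every panel spans the same number of log2 units. Cd83 parts the genotypes, with ApoE-/- points at 11.42 to 11.70 and Bl6 points at 11.84 to 12.12, and Icosl is lowest in the Bl6 high-cholesterol samples.

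Cd83 encodes a membrane protein of mature dendritic cells that keeps CD86 and MHC class II at the surface by blocking a ubiquitin ligase. The gene lies at chr13:43785112-43803133 (GRCm38.p6), and the array carries 1 probe for it. It read 11.42, 11.59 and 11.68 in ApoE-/- chow samples, 11.70, 11.60 and 11.48 in ApoE-/- high-cholesterol samples, 12.12, 12.12 and 11.84 in Bl6 chow samples and 11.85, 11.87 and 11.88 in Bl6 high-cholesterol samples. Every ApoE-/- sample lay below every Bl6 sample. The difference averaged over diets was -0.37 ± 0.09 (standard error; 95% interval -0.56 to -0.18; ApoE-/- minus Bl6, 0.774-fold, n = 6 a genotype), with an adjusted p of 0.0574, just outside the threshold of 0.05. On chow it was -0.46 ± 0.12 (adjusted p = 0.185) and on the high-cholesterol diet -0.27 ± 0.12 (adjusted p = 0.363), and the difference between these, 0.19 ± 0.17, did not pass (adjusted p = 0.841).

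The call on Cd83 turned on how the arrays were processed, while its size hardly moved. Over 23 alternatives the averaged difference lay between -0.42 and -0.31, and 6 of them brought it past the threshold. Without background correction the adjusted p was 0.00467, with an offset of 50 it was 0.0148, and with an intensity trend and robust prior 7.5e-04. With no filter on detection it was 0.0490, with detection on all 12 arrays 0.0206, and in the authors' log2 values 0.0129. Leaving out 1 sample gave an adjusted p from 0.0565 to 0.145.

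**Figure D2:**
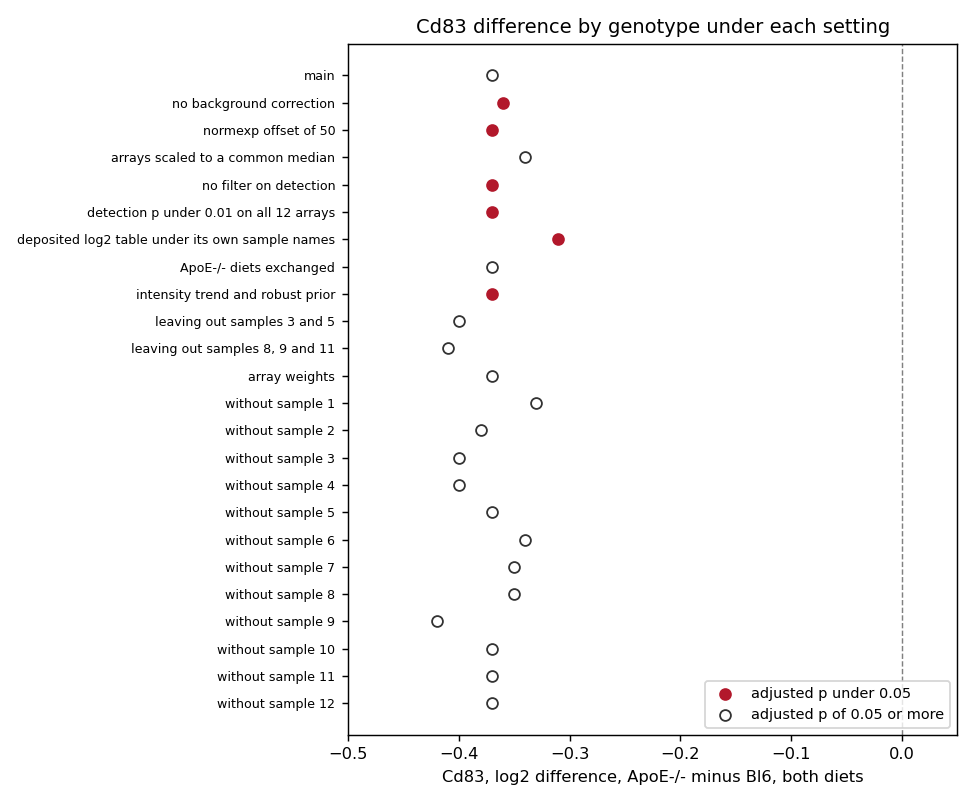
Difference of Cd83 between genotypes (ApoE-/- minus Bl6, log2, both diets; horizontal axis) under each processing setting and with each of the 12 samples left out (vertical axis); filled points have an adjusted p under 0.05. All points lie between -0.42 and -0.31, and 6 alternatives are filled.

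The T cell and neutrophil genes ran opposite to Cd83. The mean of 11 measured T cell genes was 9.65 to 10.01 in ApoE-/- samples and 9.30 to 9.52 in Bl6 samples, without overlap, and their summed linear level was 13215 to 15987 against 9669 to 12129. Of the defining T cell genes, Cd3e lay at 9.92 to 10.42 in ApoE-/- and at 9.51 to 10.13 in Bl6 samples. Of the 11 genes 10 lay above 0, with a median difference of 0.38, and Thy1, Cd6 and Cd8b1 were the 3 that passed. The mean of the 13 neutrophil genes was 8.16 to 8.74 in the knockout and 7.30 to 7.67 in Bl6 samples. Other marker genes went both ways. Of 8 measured NK cell genes 6 lay above 0, and Il2rb passed (0.56 ± 0.10, adjusted p = 0.0251). Csf2rb of the dendritic cell core rose by 0.69 ± 0.14 (adjusted p = 0.0401) and Tbx21 of the cDC2 list by 0.49 ± 0.10 (adjusted p = 0.0396). Each was the only gene of its list to pass. Of 12 measured macrophage and monocyte genes 4 lay above 0, 2 passed as lower and 1 passed as higher. C1qa, a complement gene of macrophages, differed by -0.46 ± 0.08 (adjusted p = 0.023), with ApoE-/- samples at 11.39 to 11.57 and Bl6 samples at 11.79 to 12.10. Cd68, a lysosomal gene of macrophages, differed by -0.57 ± 0.11 (adjusted p = 0.0251), with ApoE-/- samples at 11.49 to 11.77 and Bl6 samples at 11.95 to 12.44. F13a1, a monocyte gene, rose by 0.94 ± 0.17 (adjusted p = 0.0234). The summed linear level of that list was 57996 to 72262 in the knockout against 67894 to 83739, so the genotypes overlapped. Cadm1 of the cDC1 list fell by 0.51 ± 0.11 (adjusted p = 0.0433). Klk1 of the plasmacytoid list fell by 0.56 ± 0.12 (adjusted p = 0.0468). Each was the only member of its 8 measured genes to pass. The cDC1 list was split, with 4 genes above 0 and a median of -0.03. Of the plasmacytoid genes 2 lay above 0 (median -0.12), but 6 did on the high-cholesterol diet. Klk1 differed by -1.01 ± 0.17 on chow (adjusted p = 0.0417). On the high-cholesterol diet Klk1 differed by only -0.11 ± 0.17 (adjusted p = 0.845). Over both diets its readings overlapped between genotypes. Of the 12 B cell genes none passed, 1 lay above 0 and the median difference was -0.29. The part of these genes in the Cd83 difference was not tested.

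Cd80 and Cd86 encode the B7 ligands of CD28 and CTLA-4, and lie on the same chromosome, at chr16:38457430-38495958 and chr16:36568956-36666158. Cd80 read 8.18, 8.28 and 8.49 in ApoE-/- chow samples, 8.30, 8.53 and 8.06 in ApoE-/- high-cholesterol samples, 8.60, 7.58 and 7.96 in Bl6 chow samples and 8.37, 7.42 and 8.44 in Bl6 high-cholesterol samples. The Bl6 samples spread over more than the ApoE-/- samples, and the lowest 3 of the 12 were samples 8, 9 and 11. Between genotypes the averaged difference was 0.24 ± 0.21 (95% interval -0.22 to 0.70, adjusted p = 0.634). It was 0.08 without sample 11 and 0.38 without sample 7. Without samples 8, 9 and 11, a set chosen after the data were seen, it was -0.20 (adjusted p = 0.613). These held the lowest Cd80 readings, all in Bl6 samples, so the direction of that move was fixed in advance. The other Cd80 probe, detected on 10 arrays at 4.25 to 5.43, gave 0.18 ± 0.23. Its readings did not follow those of the brightest probe (Pearson r = 0.01 over the 12 samples). Samples 8, 9 and 11 read 5.07, 4.64 and 4.77 on it, and its lowest reading, 4.25, was in sample 2.

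Cd86 read 12.11, 12.14 and 12.53 in ApoE-/- chow samples, 11.94, 12.60 and 12.16 in ApoE-/- high-cholesterol samples, 12.38, 12.42 and 12.22 in Bl6 chow samples and 12.41, 12.44 and 12.29 in Bl6 high-cholesterol samples. Samples 3 and 5 were the highest of all 12, and the other 4 ApoE-/- samples were the lowest. The averaged genotype difference was -0.11 ± 0.12 (95% interval -0.38 to 0.16, adjusted p = 0.721), and it was -0.20 without sample 5 and -0.04 without sample 4. The second probe, from 11.78 to 12.26, gave 0.01 ± 0.10, and the third, from 9.43 to 10.10, gave -0.14 ± 0.14. In the ApoE-/- samples both placed samples 3 and 5 on top as well, at 12.26 and 12.23 on the second probe against 11.78 to 11.97 in the other 4, and at 10.10 in both on the third against 9.43 to 9.66.

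Marker genes set the same samples apart. In samples 3 and 5 the mean of the 13 neutrophil genes was 8.16 to 8.23, against 8.68 to 8.74 in the other 4 ApoE-/- samples. Other lists parted them too: B cell genes averaged 9.67 to 9.71 against 9.84 to 10.02, proliferation genes 8.48 to 8.66 against 8.23 to 8.39, and macrophage and monocyte genes 11.44 and 11.47 against 11.26 to 11.37. The dendritic cell core, at 8.96 in both against 8.98 to 9.06, was hardly apart. The plasmacytoid list averaged 10.13 and 10.20 in samples 3 and 5, against 10.23 to 10.59 in the other 4. The cDC1 list (8.78 and 8.68 against 8.56 to 8.71) and the cDC2 list (9.39 and 9.28 against 9.20 to 9.38) overlapped. The mean of the T cell genes, 9.68 to 9.70, lay within the range of 9.65 to 10.01 of the other 4. Leaving out samples 3 and 5, a set chosen after the data were seen, took the Cd86 difference to -0.27 (adjusted p = 0.238). These held the highest Cd86 readings, both in ApoE-/- samples, so the direction of that move was fixed in advance. In samples 8, 9 and 11 the mean of 12 B cell genes was 10.20 to 10.59, against 9.67 to 10.02 in the other 9 samples, and that of 6 proliferation genes was 7.76 to 7.85 against 8.23 to 8.66. The dendritic cell core genes averaged 8.78 to 8.83 in samples 8, 9 and 11 and 8.85 to 9.06 in the other 9. Defining B cell genes were detected on all 12 arrays, with Cd79b at 12.68 to 13.51 and Ms4a1 at 7.25 to 8.47. The part of these genes in the readings of Cd80 and Cd86 was not tested.

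**Figure D3:**
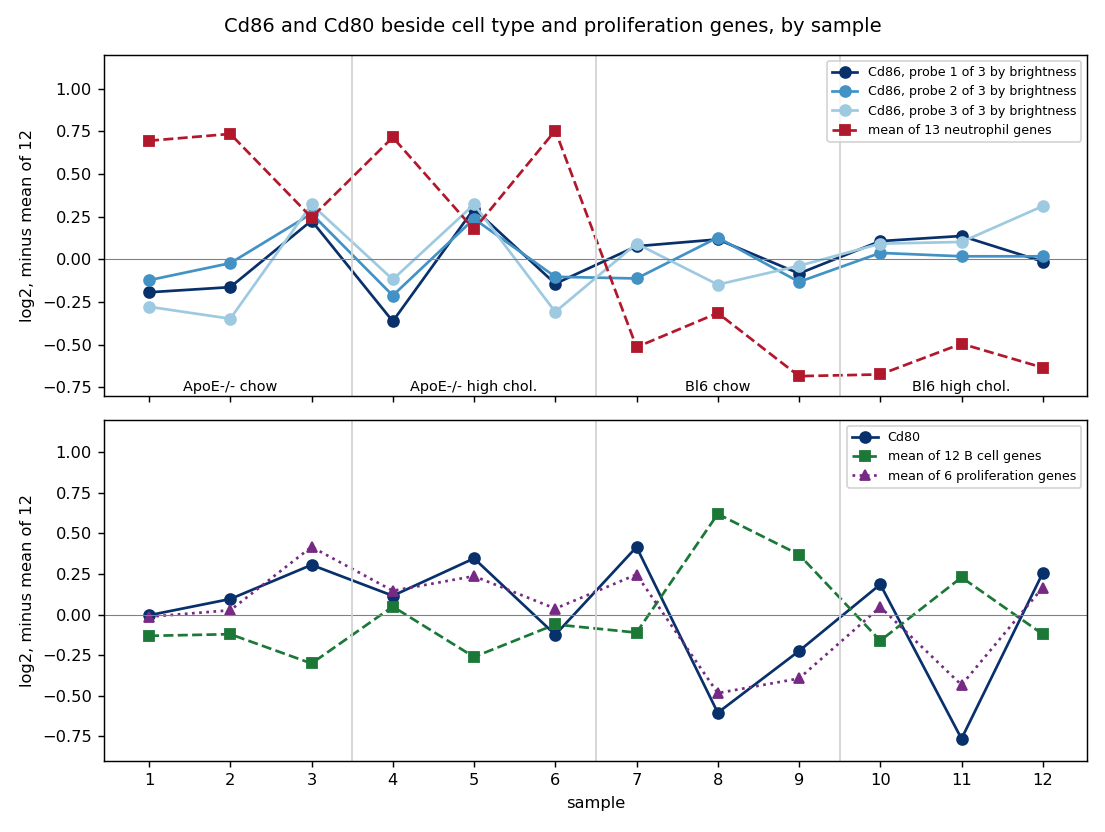
Log2 level minus the mean of the 12 samples (vertical axis) for samples 1 to 12 (horizontal axis); the upper panel shows the 3 Cd86 probes and the mean of 13 neutrophil genes, the lower panel Cd80 with the means of 12 B cell and 6 proliferation genes. Among ApoE-/- samples Cd86 is highest and the neutrophil mean lowest in samples 3 and 5, and Cd80 is lowest in samples 8, 9 and 11, where the B cell mean is highest.

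Icosl encodes the ligand of ICOS, a receptor of activated and follicular helper T cells, and B cells carry it as well as dendritic cells. It lies at chr10:78069368-78079525. It read 8.02, 8.09 and 8.10 in ApoE-/- chow samples, 8.17, 8.07 and 8.10 in ApoE-/- high-cholesterol samples, 8.11, 8.05 and 8.04 in Bl6 chow samples and 7.74, 7.83 and 7.77 in Bl6 high-cholesterol samples. The last group stood below the other 9 samples, which lay within 8.02 to 8.17. The diet difference in Bl6 samples was -0.29 ± 0.10 (high cholesterol minus chow; 95% interval -0.50 to -0.08, adjusted p = 0.274), and in ApoE-/- samples 0.05 ± 0.10 (adjusted p = 1). Between genotypes it was 0.34 ± 0.10 on the high-cholesterol diet (95% interval 0.13 to 0.55, adjusted p = 0.149) and 0.00 ± 0.10 on chow. The test of the difference between the diet effects gave 0.34 ± 0.13 (adjusted p = 0.594). With detection required on all 12 arrays, the high-cholesterol genotype difference passed (0.34, adjusted p = 0.0466). The other Icosl probe, detected on 7 arrays at 4.21 to 4.80, gave -0.05 ± 0.18 for that comparison and -0.01 ± 0.18 for the diet in Bl6.

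Pdcd1lg2 and Cd274 encode PD-L2 and PD-L1 and are neighbours, at chr19:29410919-29472927 and chr19:29362107-29388095. Pdcd1lg2, a ligand mainly of dendritic cells and macrophages, read 6.37, 6.69 and 6.61 in ApoE-/- chow samples, 6.64, 6.76 and 6.15 in ApoE-/- high-cholesterol samples, 6.23, 6.02 and 6.37 in Bl6 chow samples and 6.09, 6.04 and 6.24 in Bl6 high-cholesterol samples. The ApoE-/- samples 2 to 5 ran above every Bl6 sample, while sample 1 stood level with the highest Bl6 sample, at 6.37, and sample 6 lay among the Bl6 samples. The averaged difference was 0.37 ± 0.12 (95% interval 0.11 to 0.63, adjusted p = 0.157). In the authors' log2 values, where background was not subtracted, it was 0.24 with an adjusted p of 0.0286, the only 1 of 23 alternatives to pass. In those values the median genotype difference of all tested probes was 0.08, against 0.0 in the main setting. The size of the Pdcd1lg2 difference depended on the background step. With no background correction of the intensities it was 0.18 (adjusted p = 0.114), and with an offset of 50 it was 0.26 (adjusted p = 0.106). Leaving out 1 sample gave 0.31 (without sample 5) to 0.46 (without sample 6). Its probe was detected on all 12 arrays, at linear intensities of 140 to 200.

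Cd274, expressed on many cell types and raised by interferons, read 10.92, 10.94 and 11.02 in ApoE-/- chow samples, 11.06, 11.00 and 10.90 in ApoE-/- high-cholesterol samples, 11.14, 11.17 and 10.83 in Bl6 chow samples and 10.98, 10.89 and 11.05 in Bl6 high-cholesterol samples. All 4 groups overlapped, and the averaged genotype difference was -0.04 ± 0.08 (95% interval -0.22 to 0.15, adjusted p = 0.882).

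RefSeq's promoter table (GRCm38.p6) held 5 of the 9 genes: Cd80, Icosl, Cd274, Pdcd1lg2 and Fscn1. The 250 bases before the annotated start of Icosl and of Pdcd1lg2 are shown, since these are the 2 genes with a promoter here whose averaged difference had an unadjusted p under 0.05. That of Icosl is chr10:78069118-78069367 and that of Pdcd1lg2 chr19:29410669-29410918, both on the plus strand. Capitals mark a loose NF-kappaB pattern, GGG and CC with 5 bases between them, and the core of the sites of PU.1, a myeloid and dendritic cell factor, GAGGAA, each on either strand.
Icosl: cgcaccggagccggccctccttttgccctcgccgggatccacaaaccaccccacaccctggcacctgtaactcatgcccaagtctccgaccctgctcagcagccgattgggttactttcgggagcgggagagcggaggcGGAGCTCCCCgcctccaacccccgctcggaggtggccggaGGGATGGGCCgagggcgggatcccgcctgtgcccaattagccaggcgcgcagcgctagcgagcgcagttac
Pdcd1lg2: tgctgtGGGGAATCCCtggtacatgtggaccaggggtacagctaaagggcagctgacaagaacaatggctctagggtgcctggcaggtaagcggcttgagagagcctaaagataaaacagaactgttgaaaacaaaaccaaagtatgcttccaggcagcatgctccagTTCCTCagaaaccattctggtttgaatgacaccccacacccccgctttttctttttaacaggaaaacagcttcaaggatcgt
Icosl held the NF-kappaB pattern at 2 places and Pdcd1lg2 at 1, GGGGAATCCC, from 244 to 235 bases before the start, with a PU.1 core on the other strand. The NF-kappaB pattern was in 4 of the 5 promoters and in 45.8% of 32851 promoter windows of this length, and the PU.1 core in 1 of the 5 and in 23.3% of windows. Neither the interferon response core, GAAA and GAAA with 2 bases between them (2.98% of windows), nor the STAT core TTCNNNGAA (7.02% of windows) was in any of the 5. The annotated start behind the Cd274 window lay 5331 bases inside the gene's span and that behind the Cd80 window 1503 bases inside.

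Cd40 encodes the receptor through which helper T cells, by CD40 ligand, license dendritic cells. It lies at chr2:165055614-165071654 and had 5 probes. The brightest read 10.87, 10.91 and 10.85 in ApoE-/- chow samples, 11.16, 10.83 and 10.90 in ApoE-/- high-cholesterol samples, 11.12, 11.11 and 10.90 in Bl6 chow samples and 10.94, 11.08 and 11.10 in Bl6 high-cholesterol samples. All 12 samples lay between 10.83 and 11.16 and the groups overlapped by genotype, and the averaged genotype difference was -0.12 ± 0.09 (95% interval -0.31 to 0.07, adjusted p = 0.543). The other 4 probes gave -0.11, 0.01, 0.14 and 0.01 for it. One dim Cd40 probe, detected on all 12 arrays, read 5.38, 5.13 and 5.33 in ApoE-/- chow samples and 5.69, 5.78 and 5.79 in ApoE-/- high-cholesterol samples. That difference was 0.48 ± 0.19 and did not pass (adjusted p = 1), and on the brightest probe the same comparison gave 0.09 ± 0.12.

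Fscn1 encodes fascin, which bundles actin in the dendrites and migrating front of mature dendritic cells, and lies at chr5:142960355-142973189. It read 10.69, 10.92 and 10.94 in ApoE-/- chow samples, 10.86, 11.09 and 10.91 in ApoE-/- high-cholesterol samples, 10.89, 10.77 and 10.19 in Bl6 chow samples and 11.07, 10.79 and 11.03 in Bl6 high-cholesterol samples. Sample 9 was the lowest of the 12. The diet difference in Bl6 samples was 0.35 ± 0.18 (95% interval -0.04 to 0.74, adjusted p = 0.469), and without sample 9 it was 0.13. The averaged genotype difference was 0.11 ± 0.12 (95% interval -0.16 to 0.39, adjusted p = 0.729), and it was 0.00 without sample 9 and 0.18 without sample 7.

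Ccr7, at chr11:99144199-99155077, is carried by naive T cells and by B cells as well as by mature dendritic cells. It read 9.23, 9.18 and 9.08 in ApoE-/- chow samples, 9.18, 9.01 and 9.35 in ApoE-/- high-cholesterol samples, 9.36, 9.37 and 9.01 in Bl6 chow samples and 9.38, 9.57 and 9.41 in Bl6 high-cholesterol samples. The Bl6 high-cholesterol samples were the 3 highest of the 12. The averaged genotype difference was -0.18 ± 0.10 (95% interval -0.39 to 0.03, adjusted p = 0.407), and the diet difference in Bl6 samples was 0.20 ± 0.14 (adjusted p = 0.601).

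On each diet the 9 genes again gave 0 calls, where 0.307% of all genes passed between genotypes on chow and 0.907% under high cholesterol. At an unadjusted p under 0.05, 1 of the 9 stood apart on chow (Cd83), where 10.7% of all genes did. On the high-cholesterol diet 3 did (Cd83, Icosl and Pdcd1lg2), where 13.8% of all genes did. With 3 samples against 3, groups that do not overlap are common: 1 of the 9 on chow beside 17.4% of all genes, and 3 of the 9 (Cd83, Icosl and Ccr7) on the high-cholesterol diet beside 20.5%.

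The diet gave no call among the 9 genes in either genotype. In Bl6 samples 0.0558% of all genes passed; 1 of the 9, Icosl, had an unadjusted p under 0.05, where 12.0% of all genes did, and Icosl and Ccr7 did not overlap between diets, as did not 16.9% of all genes. In ApoE-/- samples 0.0% of all genes passed and 3.29% had an unadjusted p under 0.05, against 0 of the 9. The 9 differences there lay between -0.04 and 0.10, and all groups overlapped, where 7.99% of all genes did not. The 95% intervals of the 9 reached from -0.67 to 0.63, and both ends were those of Cd80. Differences of that size cannot be set aside for Cd80 at 3 samples a group. The intervals of the other genes were narrower, for example -0.28 to 0.49 for Fscn1 and -0.16 to 0.26 for Icosl. The test of whether the diet effect depended on genotype called 0 of the 9 and 0.0% of all genes; at an unadjusted p under 0.05 it gave 1 of the 9, Icosl, beside 7.44%.

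**Figure D4:**
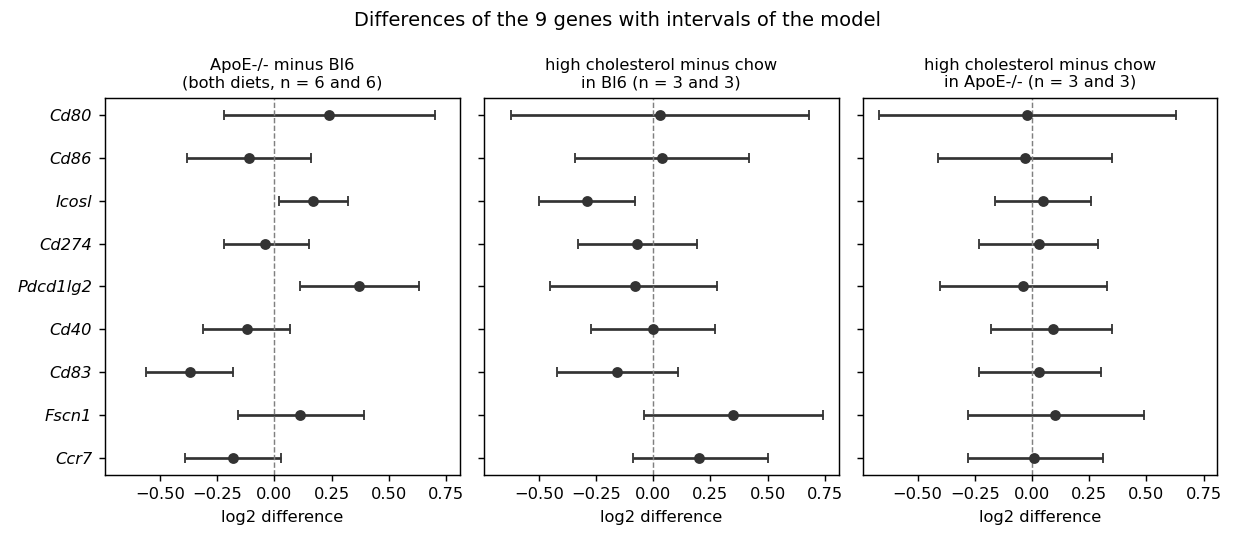
Log2 difference of each of the 9 genes (horizontal axis) between genotypes averaged over diets, between diets in Bl6 samples and between diets in ApoE-/- samples; points are the model's estimates and bars their 95% intervals. The intervals of Cd83, Icosl and Pdcd1lg2 leave out 0 in the first panel, that of Icosl in the second and none in the third, before adjustment for the number of probes.

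Other genes of the same pathways were followed in 7 lists, with each gene read from its brightest probe. Of 24 measured genes of mature and migratory dendritic cells, 1 rose and 1 fell past the threshold between genotypes averaged over diets, with a median of -0.08. Stat4, a signal transducer of interleukin 12, rose by 0.46 ± 0.08 (adjusted p = 0.0241), with Bl6 samples between 9.57 and 9.96 and ApoE-/- samples between 10.12 and 10.38. Stat4 is also a gene of T and NK cells, and its next brightest probe gave 0.09 ± 0.09. H2-M2, a nonclassical MHC class I gene, fell by 0.46 ± 0.09 (adjusted p = 0.0301), with Bl6 samples between 11.55 and 11.96 and ApoE-/- samples between 11.12 and 11.53. Ccl22 and Il12b, a chemokine and a cytokine subunit of mature dendritic cells, were each detected on 1 array and not tested.

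Of 11 measured T cell counter-receptors 1 rose past the threshold, with a median of 0.02. Cd226, a receptor of T and NK cells for the ligands PVR and nectin-2, rose by 0.90 ± 0.13 (adjusted p = 0.00822), with Bl6 samples between 5.23 and 6.06 and ApoE-/- samples between 6.36 and 6.85. Its other probes gave 0.55 (adjusted p = 0.108) and 0.29 (adjusted p = 0.235). Of 18 other costimulatory, adhesion and inhibitory ligands none passed, with a median of -0.04, and the smallest p was that of Vsir, an inhibitory ligand (-0.22 ± 0.08, adjusted p = 0.234). Pvr, in that list and chosen after its values were seen, lies near Apoe, at chr7:19903578-19921143 with Apoe at chr7:19696244-19701310. A Pvr probe other than its brightest read 4.14 to 4.95 in ApoE-/- samples, where it was detected on 1 of 6 arrays. It read 6.03 to 6.86 in Bl6 samples (adjusted p = 5.8e-05). The brightest Pvr probe gave -0.26 ± 0.17 (adjusted p = 0.512), and the third, detected on 8 arrays, gave 0.39 ± 0.20 (adjusted p = 0.374).

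Of 17 genes of CD40 and NF-kappaB signalling none passed, with a median of 0.11; Traf2, an adaptor of TNF receptors, had the smallest p (0.49 ± 0.15, adjusted p = 0.142). Of 15 CCR7 ligands, lymphoid chemokines and migration genes none passed, with a median of 0.05; Itgal, an integrin chain of leukocytes, gave 0.34 ± 0.09 (adjusted p = 0.0984). Of 13 interferon and STAT genes none passed, with a median of 0.09; Ifng, the cytokine interferon gamma, gave 0.46 ± 0.11 (adjusted p = 0.0656). Of 6 genes that act on surface CD86 and MHC class II none passed, with a median of -0.09. Among these Marchf8, a ubiquitin ligase that removes CD86 from the surface, gave -0.57 ± 0.17 (adjusted p = 0.129). Marchf1, the ligase that CD83 is known to block, lay at 10.13 to 10.36 in the knockout and at 10.21 to 10.39 in Bl6 samples (-0.07 ± 0.08). Read from its brightest probe, no gene of these lists passed in the comparisons on a single diet, between diets or of the interaction. The dimmer Pvr probe that parted the genotypes also passed limma's test on each diet. It gave -1.71 ± 0.21 on chow (adjusted p = 0.00517) and -2.15 ± 0.21 on the high-cholesterol diet (adjusted p = 7.7e-04).

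The 9 genes did not share one pattern: over their 36 pairs the Pearson correlation across the 12 samples had a median of 0.09 and ran from -0.81 (Pdcd1lg2 and Ccr7) to 0.69 (Cd40 and Cd83), with 21 pairs above 0. Likeness to their mean is therefore not likeness to each of them. These correlations include the differences between groups. For deviations from the group means they ran from -0.77 (Pdcd1lg2 and Ccr7) to 0.86 (Cd83 and Cd274). Some pairs rose, Cd83 and Fscn1 from -0.09 to 0.71 and Cd40 and Icosl from -0.14 to 0.71. Others fell, Icosl and Pdcd1lg2 from 0.56 to 0.15 and Cd86 and Cd40 from -0.21 to -0.45. The genes whose pattern over the 12 samples was most like the mean of the 9 standardised profiles were Cndp2 (Pearson r = 0.94), Marchf2 (0.85), 2700049H19Rik (0.84), Cypt15 (0.83) and C130076O07Rik (0.83), picked as the highest among all tested genes. Cypt15, at 4.26 to 5.28, and C130076O07Rik, at 4.29 to 5.48, were read from dim probes, which limits what their likeness can show. Cndp2, a peptidase gene, was lowest in samples 9 and 1, at 7.08 and 7.19, and highest in sample 7, at 7.89. The mean profile was likewise lowest in samples 9 and 1 and highest in sample 7; samples 7 and 9 are of the same group.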

How the data were processed

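RNA of 12 samples in 4 groups was measured on Illumina bead arrays. Per the labels, 100 ng of total RNA a sample was amplified and labelled. The main deposited table holds, per the file headers, an intensity for each probe, not background-subtracted, and a detection p-value. A deposited log2 table holds the authors' scaled values: each column equals the log2 of 1 intensity column plus a constant of 0 to 0.443, with medians from 6.82 to 7.12. Its scale is thus log2 and it is not centred; the origin of these constants is unknown here.

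Intensities were corrected by normexp with an offset of 16 and quantile-normalised in limma 3.58.1 (R 4.3.3), which understates changes of dim probes. One model of 4 group means was fitted, with 8 residual degrees of freedom and prior degrees of freedom of 3.43. Tests were two-sided and p-values adjusted by Benjamini and Hochberg. In the text ± is the model's standard error unless SD is stated. Steps were tested on simulated data.

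The platform's annotation gave 1 gene symbol for 35784 probes, which were looked up in RefSeq's table for GRCm38.p6. Gene number found 28620 of them, transcript 2637, symbol 2128, and 2399 kept their symbol. The 9 genes and the lists were chosen with earlier results of these data known. All probes of the 9 are given; from each list up to 3 passing genes, or else that with the smallest p, and for likeness the 5 genes with the highest correlation. The number of arrays limits the precision. Alternatives covered background, normalisation, filters, the log2 table, exchanged diet names, other probes, moderation, array weights and left-out samples.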

Additional observations from a re-analysis of the deposited data

How the results depend on the processing

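For 13 differences of the 9 genes, 313 values were computed under alternatives; 304 kept their direction and 294 also their side of the threshold. The 10 that came to pass concerned Cd83 averaged over diets (6), Cd83 on chow (without background correction, adjusted p = 0.0286, and with an intensity trend and robust prior, 0.00704), Pdcd1lg2 and Icosl. Of the 9 that turned sign, none passed. Cd274 averaged over diets gave 0.02 in the log2 table, where the median difference of all tested probes was 0.08. Without samples 8, 9 and 11, a set chosen after seeing the data, Cd80 gave -0.20 and Fscn1 -0.07. Other probes gave -0.15 (averaged) and -0.05 (high-cholesterol diet) for Icosl, 0.01 for Cd86, and 0.01, 0.14 and 0.01 for Cd40. The cause was not tested.

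The number of the 9 genes past the threshold averaged over diets was 1 without background correction, with an offset of 50, with no filter, with detection on all 12 arrays and with the trend and robust prior, and 2 in the log2 table. It was 1 on chow without background correction and with the trend, and 1 on the high-cholesterol diet with detection on all 12 arrays. Leaving out any 1 sample gave 0 in every comparison.

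Over all probes, the averaged genotype comparison called 423 (172 up, 251 down), and with the log2 values from the authors' deposited table it called 1653 (1276 up, 377 down). In those log2 values the median difference of all tested probes was 0.08, against 0.0 in the main setting. The averaged comparison called 1138 without background correction, 895 with an offset of 50, 823 with detection on all 12 arrays, 1138 with the trend, 239 without samples 3 and 5 and 51 without samples 8, 9 and 11. In the order no background correction, offset of 50, detection on all 12 arrays, log2 table and trend, the counts were 225, 153, 119, 277 and 239 on chow (68 in the main setting), 632, 494, 434, 642 and 676 on the high-cholesterol diet (202), 266, 133, 91, 221 and 254 for diet in Bl6 (10), and 10, 8, 10, 8 and 13 for the interaction (0). Fitting only the groups compared gave 26 on chow, 28 on the high-cholesterol diet and 4 for diet in Bl6. Without samples 3 and 5 it was 44 and 70 for genotype on chow and under high cholesterol, and without samples 8, 9 and 11 it was 21, 43 and, for diet in Bl6, 0. Exchanging the ApoE-/- diets gave 112 on the high-cholesterol diet, and array weights gave 1 for diet in ApoE-/- (0). Leaving out 1 sample gave 142 (without sample 1) to 604 (without sample 7) averaged over diets, 26 (without sample 1) to 77 (without sample 4) on chow, 38 (without sample 10) to 157 (without sample 7) on the high-cholesterol diet, 2 (without sample 8) to 41 (without sample 11) for diet in Bl6, and 0 for diet in ApoE-/- and for the interaction.

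No paired analysis was possible because the sample numbers run from 1 to 12 and no number is shared between groups. Dim probes, such as those of Pdcd1lg2 and the second probes of Cd80 and Icosl, carry little signal over background, which limits what their differences can show.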
